A study of Mus musculus with 6 samples.

Results

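Aldehyde dehydrogenases oxidise aldehydes to carboxylic acids with NAD(P)+ as the electron acceptor. The genes described here are 10 aldehyde dehydrogenase genes of the mouse, Aldh1a1, Aldh1a7, Aldh1a2, Aldh1a3, Aldh1b1, Aldh2, Aldh3a2, Aldh5a1, Aldh7a1 and Aldh9a1, found by symbol among the 23079 rows of a table of RNA sequencing counts from midbrain dopaminergic neurons. All 10 were in the table and all 10 passed the filter on low counts.

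The 3 knockdown libraries came from mice injected with adeno-associated virus of serotype 1 (AAV1) carrying a Satb1 short hairpin RNA (shRNA) and EGFP, and the 3 control libraries from mice injected with the same virus type carrying a scrambled shRNA and EGFP. Satb1 is a chromatin-organising DNA-binding protein. All groups share the strain background C57BL/6, the Dat bacTRAP transgene, an age of 4 months, and dissection of the ventral tegmental area and the pars compacta of the substantia nigra from 1 mm coronal slices. In bacTRAP lines a tagged ribosomal protein is made under a cell-type promoter, here that of the dopamine transporter gene Slc6a3. The labels give the molecule as total RNA and state no ribosome capture. They do not say which of the dissected regions a library holds or which of the 3 mice they mention gave which library, and the titles speak of siRNA where the treatment text speaks of shRNA. P-values therefore measure only the spread between these libraries, which may be technical.

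Monoamine oxidase turns cytosolic dopamine into a reactive aldehyde, dihydroxyphenylacetaldehyde (DOPAL), and cytosolic ALDH1A1 and mitochondrial ALDH2 are the isoforms best known for oxidising it to the acid DOPAC. The isoforms ALDH1A1, ALDH1A2 and ALDH1A3 oxidise retinal to retinoic acid, the ligand of the retinoic acid receptors, and Aldh1a1 is a marker of ventral substantia nigra dopaminergic neurons. The mouse protein encoded by Aldh1a7 is a close relative of ALDH1A1 that oxidises acetaldehyde and acts poorly on retinal.

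Aldh1a1 lies on chromosome 19 from 20492583 to 20643463 on the plus strand (RefSeq, GRCm38.p6) and Aldh1a7 on the same chromosome from 20692953 to 20727556 on the minus strand, so that the 2 genes are neighbours transcribed towards each other. Of the other members, Aldh1a2 lies on chromosome 9 (71215789 to 71296243, plus strand), Aldh1a3 on chromosome 7 (66390892 to 66427477, minus strand), Aldh1b1 on chromosome 4 (45799022 to 45804608, plus strand), Aldh2 on chromosome 5 (121566027 to 121593824, minus strand), Aldh3a2 on chromosome 11 (61223417 to 61267528, minus strand), Aldh5a1 on chromosome 13 (24907579 to 24937661, minus strand) and Aldh9a1 on chromosome 1 (167349963 to 167368530, plus strand). The coding sequences of Aldh1a1 and Aldh1a7 were identical at 1377 of 1503 aligned bases, or 91.6%. Coding identity of Aldh1a1 with Aldh1a2 was 66.4%, with Aldh1a3 66.0%, with Aldh2 63.5% and with Aldh1b1 62.4%, and with Aldh3a2, Aldh5a1, Aldh7a1 and Aldh9a1 it lay between 44.7% and 49.5%. RefSeq promoter windows, read as the 250 bases before a transcription start, were at hand for 7 of the 10 members, not for Aldh1a3, Aldh2 and Aldh7a1. The windows of the 2 neighbours are shown because these were the members called lower in the knockdown, and because the windows hold a run of 65 identical bases, from position -94 to position -30 relative to the start in both genes. That run is in capitals. The Aldh1a1 window is that of the downstream of 2 annotated starts, at chr19:20601718-20601967 on the plus strand, and the Aldh1a7 window is chr19:20727557-20727806 on the minus strand.
Aldh1a1: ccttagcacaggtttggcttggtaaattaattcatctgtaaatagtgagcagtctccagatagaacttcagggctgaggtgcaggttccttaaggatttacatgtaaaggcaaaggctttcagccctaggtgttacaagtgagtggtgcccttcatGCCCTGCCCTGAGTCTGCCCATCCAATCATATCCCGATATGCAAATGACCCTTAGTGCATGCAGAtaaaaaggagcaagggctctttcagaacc
Aldh1a7: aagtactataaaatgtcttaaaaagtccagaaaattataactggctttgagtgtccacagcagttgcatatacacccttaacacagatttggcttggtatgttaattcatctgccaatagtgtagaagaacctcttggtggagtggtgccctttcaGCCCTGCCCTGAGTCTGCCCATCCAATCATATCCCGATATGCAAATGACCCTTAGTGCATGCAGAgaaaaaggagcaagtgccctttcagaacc

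The aligned windows were identical at 161 of 254 columns, or 63.4%. The upstream Aldh1a1 window was 45.7% identical to the Aldh1a7 window, with a longest shared run of 8 bases. Within the 65-base run lie the letters CCAAT at position -72 and the octamer ATGCAAAT at position -56 of both genes. Both strands were searched and these 2 motifs do not overlap there. CCAAT was found in 33.9% of 32851 annotated mouse windows of the same length and in windows of 6 of the 7 members. ATGCAAAT was found in 1.60% of all windows and in 3 members, the third being Aldh1a2 at position -84. The shares are of windows, whereas a member was counted if any window of it held the motif. The upstream Aldh1a1 window held neither CCAAT nor ATGCAAAT. The homeodomain motif TAATCC, in 6.25% of all windows, and the nuclear receptor motif AAAGGTCA, in 1.34%, were in no window of a member. These are letter matches only, and whether a factor binds there was not measured.

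Deposited counts summed to between 147486754 and 170351145 per library, and 1 count was worth between 0.00557 and 0.00672 CPM (counts divided by library size, after TMM factors that set most genes to equal levels across libraries). Satb1, the target of the hairpin, fell to 82.9, 166 and 61.2 CPM in knockdown libraries 1, 2 and 3, against 351, 350 and 320 CPM in control libraries 1, 2 and 3, a log2 fold change of -1.72 ± 0.26 (SE, n = 3 each, edgeR quasi-likelihood adjusted p = 0.00106). Genes were called at an adjusted p under 0.05 over the 16766 genes tested. By that rule 3536 genes, or 21.1%, were called, 1421 (8.48%) higher and 2115 (12.6%) lower in the knockdown. With total counts as the only scaling this split became 2770 higher and 972 lower and the median log2 fold change of all genes was 0.18 in place of 0.01. Without knockdown library 1 the split was 804 higher and 1132 lower, and without control library 2 it stood at 910 higher and 1322 lower. All 12 defining markers of dopaminergic neurons were detected in all 6 libraries, and 7 of them fell in the knockdown while none rose, their summed level lying between 9019 and 11330 CPM in the knockdown libraries and between 13310 and 14650 CPM in the control libraries. Oligodendrocyte markers moved the other way, with 7 of 10 higher and sums of 598.8 to 678 CPM in the knockdown against 382.8 to 444.3 CPM in the controls. Astrocyte markers (2 of 10 higher, 1 lower) summed to 488.8 to 605.6 CPM in the knockdown and 460 to 566.2 CPM in the controls, and microglia markers (1 of 10 higher, 2 lower) to 44.7 to 52.6 CPM in the knockdown and 52.5 to 55.9 CPM in the controls. Of endothelial markers 1 of 8 was higher, with sums of 4.74 to 7.15 CPM in the knockdown and 3.47 to 5.90 CPM in the controls, and of meningeal or fibroblast markers 1 of 8, with 12.1 to 23.3 CPM in the knockdown and 6.97 to 13.8 CPM in the controls. No marker was at 0 in any library. Sums follow the most abundant markers, whereas the median log2 fold change of a list weighs its markers alike. That median was -0.44 for dopaminergic neurons, 0.60 for oligodendrocytes, 0.51 for astrocytes, 1.04 for microglia, 0.75 for endothelium and 0.80 for meninges and fibroblasts. The part of these shifts in the values of the aldehyde dehydrogenases was not tested.

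Of the 10 genes 2 fell, 2 rose and 6 were not called in the knockdown. The members that fell were Aldh1a1 and Aldh1a7, and those that rose were Aldh5a1 and Aldh9a1. The share called, 40%, stands beside 21.1% of all genes. The knockdown and control libraries did not overlap for 5 members, against 38.7% of all genes (17.9% with the knockdown higher and 20.8% with it lower). The median log2 fold change of the members was 0.15, against 0.01 for all genes, and 7 of the 10 had a positive value. With single libraries left out the 2 genes that fell stayed called, whereas the number that rose was 0 on leaving out knockdown library 3, control library 1 or control library 2, and 1 on leaving out knockdown library 1 or control library 3.

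**Figure D1:**
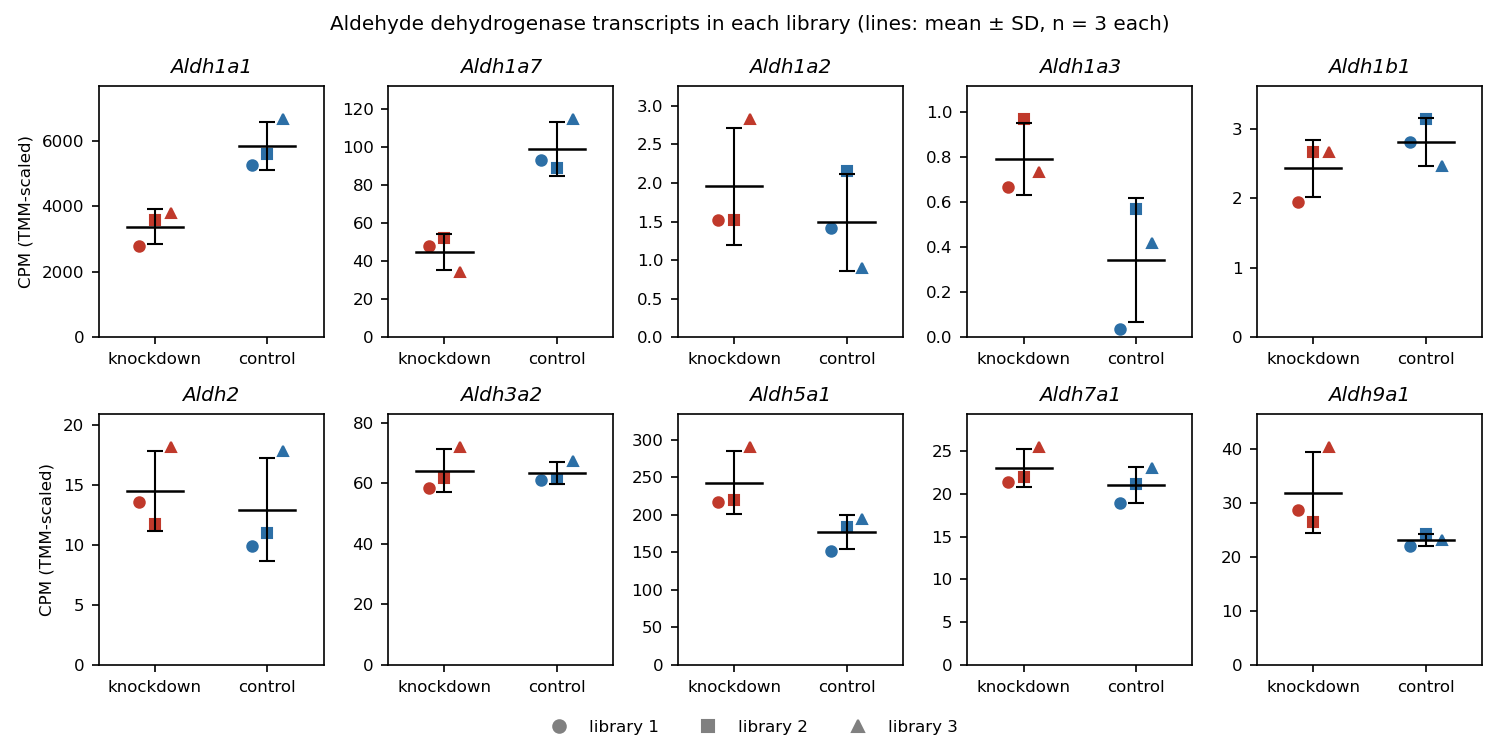
Level of each of the 10 genes in every library, in CPM scaled with TMM factors on linear axes that start at 0, with knockdown libraries at the left (red) and control libraries at the right (blue) of each panel. The long line is the mean and the error bar the SD over 3 libraries; the groups are apart for Aldh1a1, Aldh1a7, Aldh1a3, Aldh5a1 and Aldh9a1.

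Aldh1a1 had 2776, 3572 and 3780 CPM in knockdown libraries 1, 2 and 3, against 5242, 5606 and 6668 CPM in control libraries 1, 2 and 3. Every knockdown library was below every control library. The means were 3376 ± 530 CPM in the knockdown and 5839 ± 741 CPM in the controls (SD, n = 3 each), a 1.73-fold lower level with a log2 fold change of -0.79 ± 0.12 (SE, 95% interval -1.04 to -0.54, edgeR quasi-likelihood adjusted p = 0.00079). The call held under all 13 other settings tried, including the removal of each library in turn, with log2 fold changes between -0.86 and -0.62. Per kilobase of annotated exon Aldh1a1 stood at 683.8 ± 107 CPM per kb in the knockdown and 1183 ± 150 CPM per kb in the controls. That placed it 39th of 15053 genes with an annotated length in the knockdown and 20th in the controls.

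In bulk samples such as these, fewer cells of a type and less RNA per cell cannot be told apart. Aldh1a1 was therefore also set against genes that define dopaminergic neurons. Th, which makes the dopamine precursor L-DOPA, averaged 2410 ± 286 CPM in the knockdown and 3507 ± 298 CPM in the controls, with a log2 fold change of -0.54 ± 0.10 (adjusted p = 0.00228). The dopamine transporter gene Slc6a3 averaged 2731 ± 586 CPM in the knockdown and 4489 ± 193 CPM in the controls, a log2 fold change of -0.72 ± 0.12 (adjusted p = 0.00159). Slc18a2, the vesicular monoamine transporter, changed by -0.63 ± 0.11 (adjusted p = 0.00219), and Ddc, which makes dopamine from L-DOPA, had -0.20 ± 0.08 and was not called (adjusted p = 0.112). The mean log2 CPM of these 4 genes was 0.53 lower in the knockdown, at 10.68, 11.04 and 10.79 in knockdown libraries 1, 2 and 3 and 11.28, 11.40 and 11.41 in the control libraries (exact permutation p = 0.1, two-sided, the smallest that 3 against 3 libraries allow).

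Relative to the mean of the 4 markers, log2 Aldh1a1 was 0.76, 0.76 and 1.09 in knockdown libraries 1, 2 and 3, against 1.08, 1.05 and 1.29 in control libraries 1, 2 and 3. Knockdown library 3 lay among the controls. The SD was 0.19 in the knockdown and 0.13 in the controls. The difference was -0.27 (exact permutation p = 0.3, two-sided), in a test whose smallest possible p is 0.1. Relative to all 12 dopaminergic markers it was -0.43 with no overlap of the groups (exact permutation p = 0.1), and relative to Slc6a3 alone it was -0.06 (exact permutation p = 0.8).

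**Figure D2:**
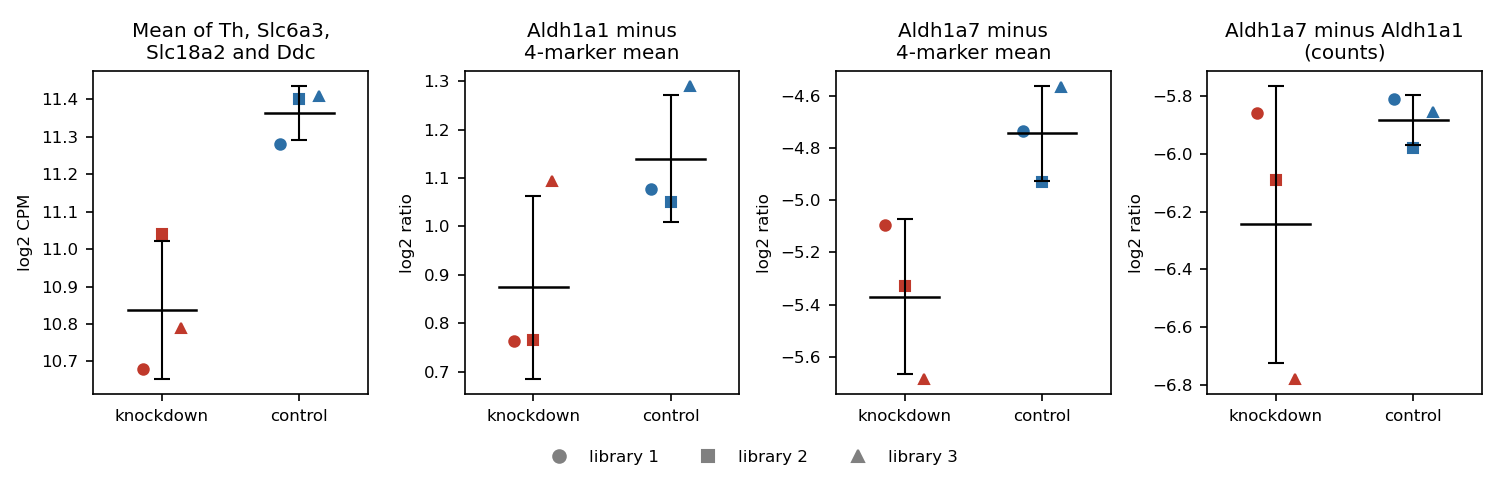
The mean log2 CPM of Th, Slc6a3, Slc18a2 and Ddc, and then, as log2 ratios, Aldh1a1 relative to that mean, Aldh1a7 relative to that mean, and Aldh1a7 counts relative to Aldh1a1 counts, in each knockdown library (red, left) and control library (blue, right). Long lines are means and bars the SD over 3 libraries; the groups overlap for Aldh1a1 against the markers and for Aldh1a7 against Aldh1a1, and are apart in the other 2 panels.

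Over the 6 libraries, the 5 genes whose log2 CPM followed Aldh1a1 most closely among 4292 others with a mean of at least 50 CPM were Magee1, Moap1, Kifap3, Tuba1b and Ndrg4, with a Pearson r between 0.997 and 0.999. As many as 390 genes reached an r of 0.95. Both groups enter these values, so that a gene which fell in the knockdown with little spread has a high r. Aldh1a7 took place 1075 with an r of 0.86.

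Aldh1a7 had 47.8, 52.4 and 34.4 CPM in knockdown libraries 1, 2 and 3, against 93.3, 88.8 and 115 CPM in control libraries 1, 2 and 3. The knockdown libraries were again all below the controls, with knockdown library 3 the lowest. Means were 44.9 ± 9.33 CPM in the knockdown and 99.1 ± 14.01 CPM in the controls, a 2.21-fold lower level, with a log2 fold change of -1.14 ± 0.15 (95% interval -1.47 to -0.82, edgeR adjusted p = 0.000517). This call too held under all 13 other settings, with log2 fold changes between -1.27 and -0.97.

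Since the 2 genes are near copies, reads could be counted for the wrong one. Of all 50-base stretches of the main transcript, 151 of 2309 (6.54%) in Aldh1a1 and 151 of 2017 (7.49%) in Aldh1a7 were found in another gene, in every case in the other of this pair. Only exact matches were counted, so stretches that differ by a few bases between the 2 genes are left out. How many of the Aldh1a7 counts are reads of Aldh1a1 was not tested. How the authors counted reads with several alignments is not given in the sources used here. Aldh1a7 counts were 1.72%, 1.47% and 0.910% of Aldh1a1 counts in knockdown libraries 1, 2 and 3, against 1.78%, 1.59% and 1.73% in control libraries 1, 2 and 3. Knockdown library 3 stood apart as the lowest. The log2 ratio of the 2 genes differed by -0.36 between knockdown and control (exact permutation p = 0.2), and by -0.09 without knockdown library 3. Relative to the 4 dopaminergic markers, Aldh1a7 was at -5.10, -5.33 and -5.69 on the log2 scale in the knockdown libraries and at -4.73, -4.93 and -4.57 in the control libraries. These groups did not overlap, and the difference was -0.63 (exact permutation p = 0.1).

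Aldh1a2, which makes most retinoic acid in the early embryo, had 1.52, 1.52 and 2.83 CPM in knockdown libraries 1, 2 and 3, against 1.42, 2.16 and 0.901 CPM in control libraries 1, 2 and 3, and the groups overlapped. The log2 fold change was 0.39 ± 0.41 (95% interval -0.50 to 1.28, edgeR adjusted p = 0.555), an interval that holds changes of either sign.

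Aldh1a3, the third retinal-oxidising isoform, had 120, 149 and 117 counts in knockdown libraries 1, 2 and 3, against 6, 88 and 62 counts in control libraries 1, 2 and 3. In CPM these were 0.669, 0.970 and 0.735 in the knockdown and 0.0369, 0.571 and 0.417 in the controls. All knockdown libraries lay above all controls, and control library 1 was far below the other controls. The log2 fold change of 1.21 ± 0.81 was not called (95% interval -0.53 to 2.96, edgeR adjusted p = 0.322).

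Summed over Aldh1a1, Aldh1a2 and Aldh1a3, the retinal-oxidising isoforms came to 3379 ± 531 CPM in the knockdown and 5841 ± 740 CPM in the controls. Aldh1a1 supplied at least 99.9% of that sum in every library, so the sum moved with Aldh1a1 and by the same log2 ratio of -0.79. The sum is a description with no test.

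Aldh2, the mitochondrial isoform that oxidises acetaldehyde and DOPAL, had 13.6, 11.7 and 18.2 CPM in knockdown libraries 1, 2 and 3, against 9.93, 11.03 and 17.9 CPM in control libraries 1, 2 and 3. The groups overlapped, with library 3 the highest in each. The log2 fold change was 0.17 ± 0.22 (95% interval -0.31 to 0.64, edgeR adjusted p = 0.654). Exons of Aldh2 overlap the opposite-strand gene Gm42879, and 2.12% of its 50-base stretches recur there. Per kilobase of exon the level of Aldh1a1 was 241.5 times that of Aldh2 in the knockdown and 468.3 times in the controls. These ratios depend on the length used. Per kilobase of the main transcript, Aldh1a1 and Aldh2 stood at 1432 and 3.75 CPM in the knockdown and at 2476 and 3.35 CPM in the controls. For the DOPAL-oxidising pair together, the sum was 3391 ± 532 CPM in the knockdown and 5852 ± 745 CPM in the controls, and Aldh1a1 gave 99.5% to 99.7% of it in knockdown libraries and 99.7% to 99.8% in control libraries.

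Aldh1b1 encodes a mitochondrial enzyme whose coding sequence is 69.0% identical to that of Aldh2. It had 1.95, 2.68 and 2.67 CPM in knockdown libraries 1, 2 and 3, against 2.82, 3.15 and 2.46 CPM in control libraries 1, 2 and 3. These ranges overlapped, and the log2 fold change of -0.21 ± 0.27 was not called (edgeR adjusted p = 0.641).

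Aldh5a1, succinate semialdehyde dehydrogenase, completes the breakdown of GABA in mitochondria. It had 217, 220 and 291 CPM in knockdown libraries 1, 2 and 3, against 152, 184 and 195 CPM in control libraries 1, 2 and 3, with no overlap and with knockdown library 3 well above the rest. The means of 242.5 ± 41.8 CPM in the knockdown and 176.6 ± 22.3 CPM in the controls differed 1.37-fold, a log2 fold change of 0.46 ± 0.13 (95% interval 0.18 to 0.74, edgeR adjusted p = 0.024). The call was lost without control library 1 (log2 fold change 0.36, adjusted p = 0.0998), without control library 2 (0.48, adjusted p = 0.0651) and without knockdown library 3 (0.32, adjusted p = 0.0674). Exons of Aldh5a1 overlap the opposite-strand genes 9330162012Rik and 4932702P03Rik, and 768 of its 5598 stretches of 50 bases (13.7%) recur in another gene, 613 of them in 4932702P03Rik. 4932702P03Rik received between 94.3% and 94.9% as many counts as Aldh5a1 in the 6 libraries. Reads from opposite strands cannot be told apart without knowledge of the strand, and some reads may have been counted for both.

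Aldh9a1 encodes a cytosolic enzyme of aminoaldehydes that acts in carnitine synthesis and can make GABA from gamma-aminobutyraldehyde. It had 28.8, 26.4 and 40.5 CPM in knockdown libraries 1, 2 and 3, against 22.1, 24.2 and 23.1 CPM in control libraries 1, 2 and 3. The groups did not overlap, but knockdown libraries 1 and 2 were close to the controls. The means were 31.9 ± 7.52 CPM in the knockdown and 23.1 ± 1.07 CPM in the controls, with a log2 fold change of 0.46 ± 0.15 (95% interval 0.14 to 0.79, edgeR adjusted p = 0.0452). This call lay near the threshold and was lost with limma-voom (log2 fold change 0.44, adjusted p = 0.0504) and on leaving out any of 5 libraries. Without knockdown library 3 the log2 fold change was 0.27 (adjusted p = 0.147), and the others are control library 1 (0.43, adjusted p = 0.125), control library 2 (0.50, adjusted p = 0.0911), control library 3 (0.46, adjusted p = 0.103) and knockdown library 1 (0.54, adjusted p = 0.0559).

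Aldh3a2, the fatty aldehyde dehydrogenase of the endoplasmic reticulum, had 58.4, 61.9 and 72.2 CPM in knockdown libraries 1, 2 and 3, against 61.2, 61.4 and 67.5 CPM in control libraries 1, 2 and 3. The log2 fold change was 0.02 ± 0.11, with a 95% interval of -0.22 to 0.25 (edgeR adjusted p = 0.936). Aldh7a1, a gene of chromosome 18 which acts in lysine breakdown and in betaine synthesis, had 21.4, 22.0 and 25.5 CPM in knockdown libraries 1, 2 and 3, against 18.9, 21.1 and 23.0 CPM in control libraries 1, 2 and 3. Its log2 fold change was 0.13 ± 0.13 (edgeR adjusted p = 0.520). The groups overlapped for both genes. Exons of Aldh7a1 overlap those of Phax and of AC162035.3 on the other strand. Phax received 199.3% to 208.2% as many counts as Aldh7a1 in the knockdown libraries and 239.4% to 278.3% in the control libraries. How many of the Aldh7a1 counts are reads of Phax was not tested. No exon of Aldh1a1, Aldh1a7, Aldh1a2, Aldh1a3, Aldh1b1, Aldh3a2 or Aldh9a1 overlaps another gene in the annotation used.

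**Figure D3:**
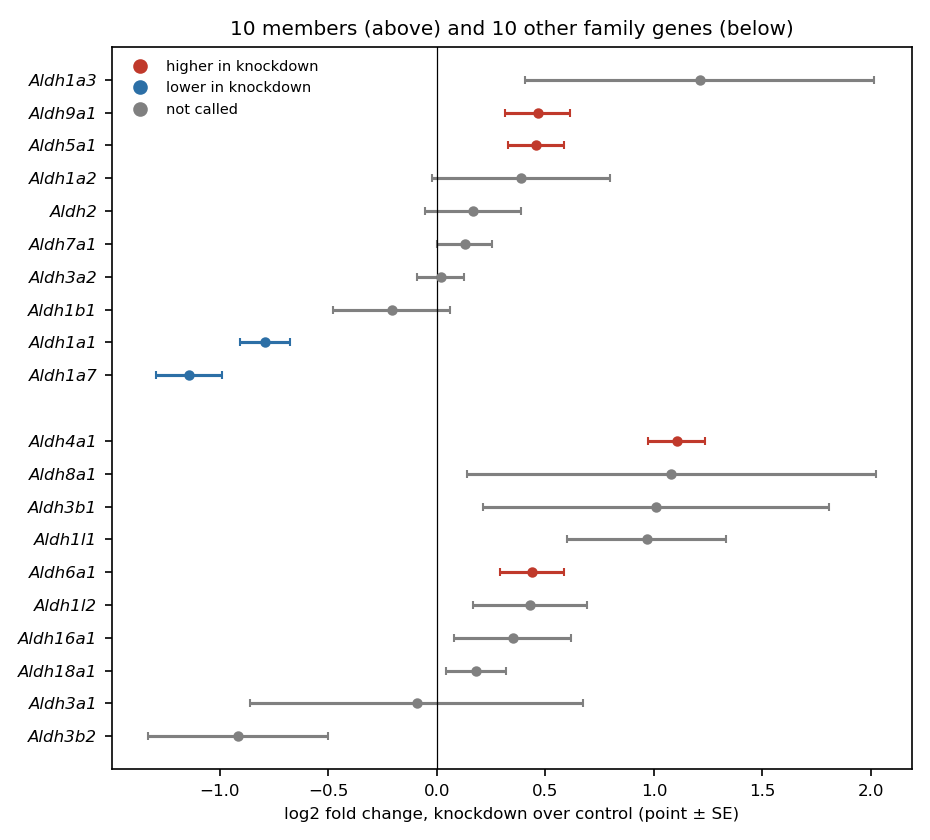
Log2 fold change of knockdown over control, with SE bars from the edgeR fit, for the 10 genes described here (above) and 10 other genes of the family (below); red marks genes called higher, blue genes called lower and grey genes not called. Aldh1a1 at -0.79 and Aldh1a7 at -1.14 are the blue points, and Aldh5a1, Aldh9a1, Aldh4a1 and Aldh6a1 the red ones.

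Knockdown library 3 was the highest of the 6 for Aldh1a2, Aldh2, Aldh3a2, Aldh5a1, Aldh7a1 and Aldh9a1, and without it neither Aldh5a1 nor Aldh9a1 was called. It did not have the highest marker sum of the knockdown libraries for oligodendrocytes (678, 598.8 and 637.3 CPM in knockdown libraries 1, 2 and 3). For astrocytes (488.8, 522.6 and 605.6 CPM) and microglia (44.7, 46.2 and 52.6 CPM) it had the highest. For endothelium (7.15, 5.45 and 4.74 CPM) and for meninges and fibroblasts (23.3, 18.6 and 12.1 CPM) it had the lowest. Single astrocyte markers differed: Aldoc was highest in knockdown library 3 (245, 273.6 and 359.5 CPM). S100b was the lowest of the knockdown libraries there (39.1, 30.7 and 24.9 CPM). Whether these marker levels bear on the 6 genes was not tested.

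In level per kilobase of exon, the order in the controls was Aldh1a1, Aldh1a7 (47.9 ± 6.78 CPM per kb), Aldh5a1 (31.3 ± 3.96), Aldh3a2 (11.3 ± 0.638), Aldh9a1 (6.83 ± 0.316), Aldh7a1 (4.06 ± 0.398), Aldh2 (2.53 ± 0.840), Aldh1b1 (1.22 ± 0.150), Aldh1a2 (0.659 ± 0.278) and Aldh1a3 (0.0740 ± 0.0596). No neighbours in that order overlapped over the 3 control libraries. In the knockdown Aldh5a1, at 42.9 ± 7.39 CPM per kb, stood above Aldh1a7, at 21.7 ± 4.52 CPM per kb, and their libraries did not overlap. There Aldh3a2 (11.4 ± 1.27 CPM per kb) and Aldh9a1 (9.42 ± 2.22 CPM per kb) overlapped, as did Aldh1b1 (1.06 ± 0.181 CPM per kb) and Aldh1a2 (0.864 ± 0.336 CPM per kb). Division by the length of the main transcript instead of all exons put Aldh7a1 before Aldh9a1 in the controls and left the other 8 genes at their places.

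The 10 genes together came to 3167, 3972 and 4268 CPM in knockdown libraries 1, 2 and 3, against 5604, 6002 and 7113 CPM in control libraries 1, 2 and 3. Aldh1a1 supplied 87.7%, 90.0% and 88.6% of that in the knockdown libraries and 93.6%, 93.4% and 93.7% in the control libraries. The sum was 1.64-fold lower in the knockdown. Without Aldh1a1 and Aldh1a7 the remaining 8 genes summed to 343.3, 347 and 453.3 CPM in the knockdown libraries, against 268, 307.2 and 329.9 CPM in the control libraries, 1.26-fold higher, a sum in which Aldh5a1 has the most counts. These sums are descriptions with no test.

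The other aldehyde dehydrogenase genes of the mouse gave 10 tested genes, of which 2 rose and none fell (8.48% and 12.6% of all genes), with a median log2 fold change of 0.43. Aldh4a1, which acts in mitochondrial proline breakdown, had 23.0, 21.6 and 26.4 CPM in knockdown libraries 1, 2 and 3, against 11.6, 10.4 and 10.99 CPM in control libraries 1, 2 and 3. Its groups were far apart, with a log2 fold change of 1.10 ± 0.13 (edgeR adjusted p = 0.00037) that held under all 13 other settings, and its exons overlap the same-strand gene Gm21969. Aldh6a1, an enzyme of valine and thymine breakdown whose exons overlap Bbof1, had a log2 fold change of 0.44 ± 0.15 (adjusted p = 0.0498), and the call was lost with limma-voom (0.41, adjusted p = 0.0551) and without control library 1, 2 or 3 or knockdown library 2 or 3 (0.25 to 0.50, adjusted p between 0.0517 and 0.159). Aldh1l1, an enzyme of folate metabolism that is also an astrocyte marker, had 3.42 ± 1.28 CPM in the knockdown and 1.75 ± 0.693 CPM in the controls and was not called (log2 fold change 0.97, adjusted p = 0.0809). Aldh3b2 had a log2 fold change of -0.92 (adjusted p = 0.141). For Aldh1l2, Aldh3a1, Aldh3b1, Aldh8a1, Aldh16a1 and Aldh18a1 the adjusted p lay between 0.277 and 0.952.

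Around the retinal-oxidising members, 26 genes of retinoid metabolism and signalling were tested, of which 6 rose, 2 fell and 18 were not called (8.48% and 12.6% of all genes), with a median log2 fold change of 0.26. Of the receptor genes, Rara, Rarb, Rxra and Rxrg rose, Rxrb fell and Rarg was not called. Rxrb had 20.8 ± 0.939 CPM in the knockdown and 31.7 ± 0.407 CPM in the controls (log2 fold change -0.61 ± 0.11, edgeR adjusted p = 0.00228), while the retinoid X receptor gene Rxra rose (0.50 ± 0.14, adjusted p = 0.0253) and so did the retinoic acid receptor gene Rarb (0.80 ± 0.21, adjusted p = 0.0161), whose exons overlap Top2b. Rara, Rxrg and Cyp26b1, an enzyme that breaks down retinoic acid, make up the called genes that rose, together with the retinol dehydrogenase gene Rdh13 (0.47 ± 0.13, adjusted p = 0.019). Fabp5, a fatty acid binding protein that also carries retinoic acid, fell (-0.35 ± 0.10, adjusted p = 0.0237). The Rxrb call held under all 13 other settings. Without knockdown library 3 none of the other 4 with values here was called (Rarb 0.64, Rdh13 0.38, Rxra 0.47, Fabp5 -0.26). Calls were lost also without control library 1 (Rxra 0.50, Fabp5 -0.30), control library 2 (Rarb 0.68, Rdh13 0.40, Fabp5 -0.34), control library 3 (Rdh13 0.45, Rxra 0.39) and knockdown library 1 (Rxra 0.48, Fabp5 -0.38), and for Fabp5 with total counts (-0.18). In the whole list 3 genes rose without control library 1 or knockdown library 1, 2 without control library 2, and 1 without control library 3 or knockdown library 3. Rdh10, which makes retinal from retinol, was not called (-0.14, adjusted p = 0.730).

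Around DOPAL, 12 genes of dopamine breakdown and aldehyde reduction were tested, of which 1 rose, 1 fell and 10 were not called (8.48% and 12.6% of all genes), with a median of 0.11. The monoamine oxidase genes Maoa (log2 fold change 0.13, adjusted p = 0.429) and Maob (0.43, adjusted p = 0.0959) were not called. Akr1a1, an aldehyde reductase, averaged 568.9 ± 38.1 CPM in the knockdown and 754.8 ± 19.4 CPM in the controls (-0.41 ± 0.08, edgeR adjusted p = 0.0047). That call was lost with total counts as the scaling (-0.24, adjusted p = 0.0518). Akr1b3, aldose reductase, averaged 218.6 ± 20.4 CPM in the knockdown and 168.4 ± 10.4 CPM in the controls (0.38 ± 0.10, adjusted p = 0.0161), a call lost without control library 1 (0.36, adjusted p = 0.0583) or control library 2 (0.34, adjusted p = 0.0871). The number of genes that rose in this list was 0 without control library 1 or control library 2, 2 without knockdown library 2, with limma-voom or with the replicate block, 3 with DESeq2 or the filter at 1 CPM, and 4 with total counts.

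Around Aldh5a1 and the amine substrates of Aldh9a1, 18 genes of GABA and polyamine metabolism were tested, of which 2 rose, 6 fell and 10 were not called (8.48% of all genes rose and 12.6% fell), with a median of 0.07. Abat, the GABA transaminase that makes the substrate of Aldh5a1, fell to 203.0 ± 24.1 CPM in the knockdown, against 290.1 ± 14.3 CPM in the controls (log2 fold change -0.52 ± 0.10, edgeR adjusted p = 0.00393). Sat2 fell (-1.04 ± 0.15, adjusted p = 0.000664), as did the antizyme gene Oaz3 (-0.60 ± 0.13, adjusted p = 0.00614), whose exons overlap Mrpl9 and Tdrkh. Odc1, which makes putrescine, rose (0.46 ± 0.09, adjusted p = 0.00323). The calls of Abat, Sat2, Oaz3 and Odc1 held under all 13 other settings. With total counts 5 genes of the list rose, and 1 rose without control library 2, control library 3 or any single knockdown library. Gad1 and Gad2, which make GABA from glutamate, were not called (0.32 and 0.13, adjusted p = 0.151 and 0.606).

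Around Aldh3a2, 14 genes of lipid aldehyde and sphingolipid breakdown were tested, of which 6 rose, none fell and 8 were not called (8.48% of all genes rose and 12.6% fell), with a median of 0.32. The glutathione transferase genes Gsta4 (0.48 ± 0.10, edgeR adjusted p = 0.00551), Gstm1 (0.64 ± 0.15, adjusted p = 0.00935) and Gstp1 (0.35 ± 0.09, adjusted p = 0.013) rose, the last not without control library 3 (0.32, adjusted p = 0.0557). So did Phyh, an enzyme of phytanic acid breakdown (0.45 ± 0.10, adjusted p = 0.00833), and the prostaglandin reductase genes Ptgr2 (0.42 ± 0.10, adjusted p = 0.0126) and Ptgr1. Ptgr1 was near the floor, at 0.625 ± 0.264 CPM in the knockdown and 0.0367 ± 0.0583 CPM in the controls (4.06 ± 1.19, edgeR adjusted p = 0.0292). With the filter at 1 CPM 5 genes of this list rose. The oligodendrocyte marker sums given above were also higher in the knockdown, and their part in these values was not tested. Around Aldh7a1 and Aldh9a1, none of 11 tested genes of lysine breakdown, carnitine and choline metabolism was called by edgeR as set here, with a median of 0.35. In that list 1 gene had an unadjusted p under 0.05, edgeR called 2 higher with total counts and 1 lower with the replicate block, DESeq2 called 1 higher and 1 lower, and limma-voom called 1 lower. The smallest p-values were those of Dmgdh (log2 fold change -0.73, adjusted p = 0.054, but called lower without control library 3 or knockdown library 2, at -0.86 and -1.004) and Aadat (0.86, adjusted p = 0.150).

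**Figure D4:**
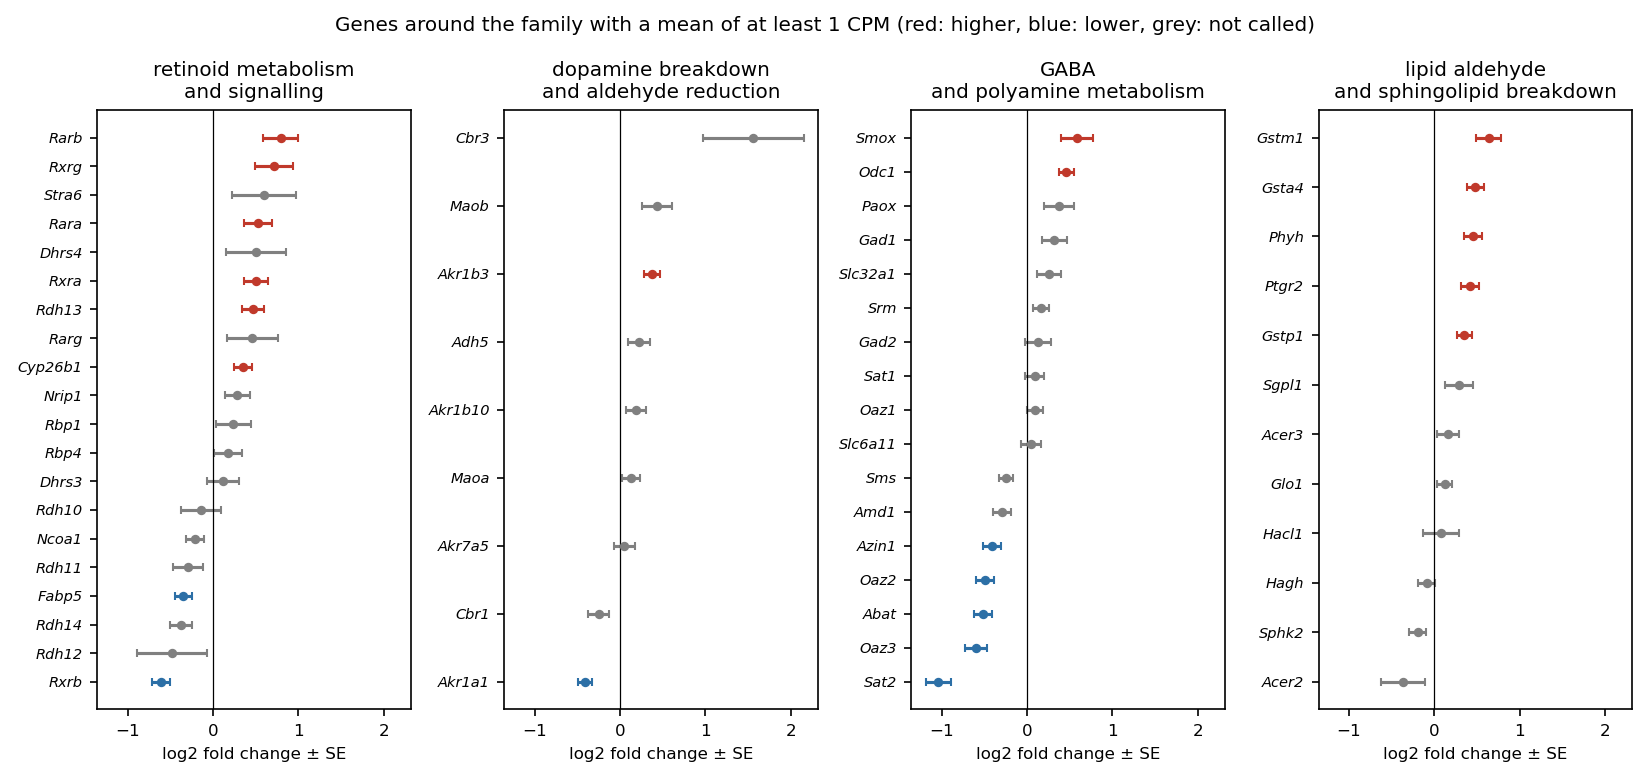
Log2 fold change of knockdown over control, with SE bars from the edgeR fit, for genes of 4 lists around the family that had a mean of at least 1 CPM and are reported here, 1 panel per list; red marks genes called higher, blue genes called lower and grey genes not called. Called lipid aldehyde genes lie above 0, and called genes of the other 3 lists lie on both sides, from Sat2 at -1.04 to Rarb at 0.80.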

How the data were processed

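RNA sequencing of 6 mouse libraries was analysed, 3 from Satb1 knockdown and 3 from scrambled control, grouped and numbered by the sample titles. The deposited table gives raw counts as whole numbers, 1 row a gene and 1 column a library. The submitters' processing notes name TopHat2 2.0.8 and the build mm10; how reads were counted, strand included, is not given in the sources used here. Of its 23079 rows, 3361 were at 0 throughout, and totals per library ran from 147486754 to 170351145.

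Knockdown was compared with control by edgeR 4.0.16 (R 4.3.3), using its two-sided quasi-likelihood F-test with TMM scaling, the filterByExpr filter (minimum count 10, minimum total 15) and Benjamini-Hochberg adjustment over 16766 genes at 0.05. Standard errors came from the F statistic, and intervals cover 95% with the degrees of freedom of the fit. The common dispersion had a square root of 0.276. Relative levels were compared by exact permutation over libraries. Alternatives were relative log expression and total-count scaling, no filter, a mean of at least 1 CPM, DESeq2 1.42.0, limma-voom (limma 3.58.1), the replicate number as a block, and each library left out; the test was tried on simulated data.

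Exon lengths, overlaps and transcripts came from GENCODE vM21 (GRCm38), loci and promoter windows from RefSeq GRCm38.p6. Named genes were the 10 members, Satb1, 4 dopaminergic markers, tested genes of the family and the 5 genes most like Aldh1a1. Of each list they were the called genes with at most the 5 smallest p-values, or else the 2 smallest. Predicted models and pseudogenes were passed over. Rara, Rarg, Rxrg, Cyp26b1, Ptgr1, Maoa, Maob, Gad1, Gad2, Rdh10, Aldoc and S100b were named after their values were seen. Some list genes are counted with their list but not reported here. The members and lists were chosen with earlier results of these data known.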

Additional observations from a re-analysis of the deposited data

How the results depend on the processing

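Aldh1a1, Aldh1a7 and Satb1 were called lower under all 13 alternatives, and the count of members called lower stayed at 2 in each. Members called higher numbered 2 as reported, 1 with limma-voom and 0 to 2 with a library left out. Aldh5a1 and Aldh9a1 are the genes concerned. Over all genes, 1421 were higher and 2115 lower as reported, 2770 and 972 with total counts, and 804 to 1356 and 1132 to 2054 with a library left out, the lowest without knockdown library 1. The 6 gene lists around the family held 10, 26, 12, 18, 14 and 11 tested genes. In these lists 17 genes were higher and 9 lower as reported, beside 8.48% and 12.6% of all genes. With total counts 28 were higher, beside 16.5% of all genes, and with the replicate block 14 were lower, beside 16.6%. With a library left out 8 to 14 were higher, beside 4.71% to 7.94% of all genes. The numbers were 11 without control library 1, 10 without control library 2, 8 without control library 3 and 9 without knockdown library 3. Uncalled members changed sign with a library left out: Aldh2 ranged from -0.019, without knockdown library 3, to 0.47, and Aldh3a2 from -0.061, without the same library, to 0.087, with -0.0091 and -0.0064 on removing control library 1 and 2. The cause of these changes was not tested, beyond the smaller number of libraries.

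Same-numbered knockdown and control libraries deviated from their group means with correlations of 0.06, 0.01 and 0.11. Between libraries of different numbers the correlations lay between -0.10 and 0.05, and 5 of 6 libraries correlated best with their own number. Whether same-numbered libraries share more than a number was not tested. With the replicate block 1924 genes were higher and 2789 lower, and among the members 2 were higher and 2 lower. With the pairing, the exact sign-flip test of Aldh1a1 relative to the 4 markers gave p = 0.25, the smallest that 3 pairs allow.

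The order of the members by transcript length was added after seeing the data. Aldh1a3, at 6 counts in control library 1, is the member whose depth limits the comparison most, and it has no value under the 1 CPM filter.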
